A study of Mus musculus with 24 samples.

Results

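The peroxisome proliferator-activated receptor alpha (PPARA) module comprised 46 genes of fatty acid handling, chosen by name for their roles: the receptor, a coactivator, secreted signals under its control, and the enzymes and carriers that take up, activate, shuttle and oxidise fatty acids. The choice was made with earlier results of these data known. The 46 members were 46 of the 37583 genes measured, and all 46 were among the 16471 genes with enough signal to be tested. The study asked how loss of Smyd3, a lysine methyltransferase of the SET and MYND family, changes livers of mice exposed to diethylnitrosamine (DEN). DEN is a liver carcinogen after which rodents develop hepatocellular tumours, and the tumour content of these livers was not examined here. RNA came from 12 livers of mice labelled C57BL6/CBA and aged 8.5 months, in 4 groups of 3: Smyd3 knockout mice given DEN once at 25 mg/kg by intraperitoneal injection (DEN_KO), wild-type mice given the same injection (DEN_WT), untreated Smyd3 knockout mice (KO) and untreated wild-type mice (WT). The knockout line derives from a gene-trap embryonic stem cell clone with its cassette in intron 5 of Smyd3, so it acts in every tissue, and the exons before the cassette can still be transcribed. Each library carries the number of its own mouse. Lists of regions from chromatin immunoprecipitation (ChIP) came from DEN-treated livers only: H3K4me3, a histone mark found at the starts of active genes, in DEN_KO and DEN_WT, and Smyd3 itself in DEN_WT. The time of day and the feeding state at dissection, on which this pathway depends, were not stated in the labels, nor was the sex of the mice.

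PPARA is a nuclear receptor that binds DNA with a retinoid X receptor partner and is switched on by fatty acids and their derivatives. In liver it is best known for the fasting response, when fatty acids released from fat tissue are bound, activated to acyl-CoA, carried across the mitochondrial membranes as carnitine esters, and shortened by beta-oxidation, with electrons passed to the respiratory chain and acetyl-CoA turned to ketone bodies. Very long chains and dicarboxylic acids, the products of omega-hydroxylation, are shortened in peroxisomes, and in rodents PPARA activators also multiply these organelles.

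The receptor pair recognises a response element made of 2 copies of the hexamer AGGTCA in direct repeat with any 1 base between them. Promoters of 300 bases (250 before to 50 after the start) were matched in RefSeq (GRCm38.p6) for 36 of the 46 members, giving 42 promoters. Both strands were searched, and overlapping matches were counted once per promoter. The exact element was in 0 of the 42, as in 0.0396% of 32851 promoters of all genes. With up to 1 of its 12 fixed letters changed it was in 1 member promoter (2.38%, against 0.554% of all promoters), and with up to 2 changed in 4 (9.52%, against 3.86%). The hexamer alone was in 8 of 42 (19.0%, against 16.3%). The 4 promoters with a match of up to 2 changed letters are shown because they are the member windows in which the letters of the element can be seen, and the capitals mark the matched stretch. They lie at chr6:71199629-71199928 on the + strand (Fabp1), chr12:84038129-84038428 on the + strand (Acot4), chr9:55512194-55512493 on the - strand (Etfa) and chr9:108661886-108662185 on the + strand (Slc25a20), and each is written 5′ to 3′ in the direction of the gene.
Fabp1: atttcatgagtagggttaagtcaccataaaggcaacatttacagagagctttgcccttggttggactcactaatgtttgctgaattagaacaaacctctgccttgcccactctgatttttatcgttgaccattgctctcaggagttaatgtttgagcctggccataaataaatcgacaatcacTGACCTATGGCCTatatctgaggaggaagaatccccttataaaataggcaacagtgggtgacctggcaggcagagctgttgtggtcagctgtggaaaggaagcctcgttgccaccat
Acot4: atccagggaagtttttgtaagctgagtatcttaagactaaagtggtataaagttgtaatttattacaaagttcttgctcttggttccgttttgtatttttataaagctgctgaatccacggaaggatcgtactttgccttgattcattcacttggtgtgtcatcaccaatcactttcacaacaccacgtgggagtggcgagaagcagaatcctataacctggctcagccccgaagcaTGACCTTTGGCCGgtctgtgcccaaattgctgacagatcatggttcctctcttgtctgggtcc
Etfa: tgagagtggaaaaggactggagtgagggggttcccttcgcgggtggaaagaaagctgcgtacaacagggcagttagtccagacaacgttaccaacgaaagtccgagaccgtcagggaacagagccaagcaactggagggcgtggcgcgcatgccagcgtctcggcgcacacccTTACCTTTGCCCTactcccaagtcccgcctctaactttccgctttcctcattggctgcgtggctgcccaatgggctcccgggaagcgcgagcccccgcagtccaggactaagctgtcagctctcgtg
Slc25a20: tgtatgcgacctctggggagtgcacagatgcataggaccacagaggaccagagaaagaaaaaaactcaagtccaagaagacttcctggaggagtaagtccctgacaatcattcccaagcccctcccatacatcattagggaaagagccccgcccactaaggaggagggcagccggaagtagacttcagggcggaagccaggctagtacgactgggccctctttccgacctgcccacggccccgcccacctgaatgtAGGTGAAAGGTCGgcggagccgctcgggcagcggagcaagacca

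In Fabp1, the fatty acid binding protein of the hepatocyte, the match had 1 changed letter and began 67 bases before the start, on the strand opposite to the gene. A match describes letters in a short window and does not by itself show binding. Windows without a match say nothing about PPARA binding farther away.

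Gene positions are those of the deposited files, build mm9. Values below are the authors' normalized read counts, which are not raw counts, and each library's values sum to between 22320634 and 28973396. Fold changes are log2 differences of group means of log2(value + 1) with their standard error (SE). A gene was called when its adjusted p over all 16471 tested genes was under 0.05 in a limma fit of the 4 groups. Smyd3 read 12, 3 and 8 in DEN_KO, 57, 71 and 74 in DEN_WT, 29, 17 and 22 in KO, and 79, 89 and 59 in WT, so no knockout library overlapped a wild-type one. Libraries of 1 group correlated with r of 0.956 to 0.978. Hepatocyte markers were abundant in every library, with a mean log2 level over 14 of them of 15.3 to 15.4 in DEN_KO, 15.2 to 15.3 in DEN_WT, 15.2 to 15.6 in KO and 15.2 to 15.4 in WT. A pair of libraries stood apart most within their groups: WT replicate 1 was the lowest of the WT libraries for 38 of the 46 members, and DEN_KO replicate 2 was the highest of the DEN_KO libraries for 31. Others came near, with WT replicate 3 the highest of its group for 29, DEN_WT replicate 1 the highest for 23 and KO replicate 3 the lowest for 23. Counts of members called are given with and without WT replicate 1 and DEN_KO replicate 2, and counts of the other gene lists with all libraries.

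The module was low in the livers of DEN-treated wild-type mice and stood near the untreated level in DEN-treated knockouts. The 46 members together made up 1.30% to 1.64% of all values in DEN_KO, 0.657% to 0.719% in DEN_WT, 1.15% to 1.27% in KO and 1.22% to 1.39% in WT. In their mean log2 level, the libraries lay at 11.3 to 11.9 in DEN_KO, 10.5 in each DEN_WT library, 11.2 to 11.3 in KO, and 10.7 to 11.6 in WT, where the 10.7 is WT replicate 1. The 3 DEN_WT libraries were below all 9 others for 26 members and above all 9 for 1, Abcd2, while over all tested genes 7.55% had all 3 DEN_WT libraries below and 11.6% above. Within groups the members varied by a median coefficient of variation of 19.6% in DEN_KO, 14.5% in DEN_WT, 18.9% in KO and 21.7% in WT, with maxima at Fgf21 (117%, DEN_KO), Angptl4 (89.9%, DEN_WT), Acot3 (88.0%, KO) and Cyp4a10 (95.7%, WT).

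**Figure D1:**
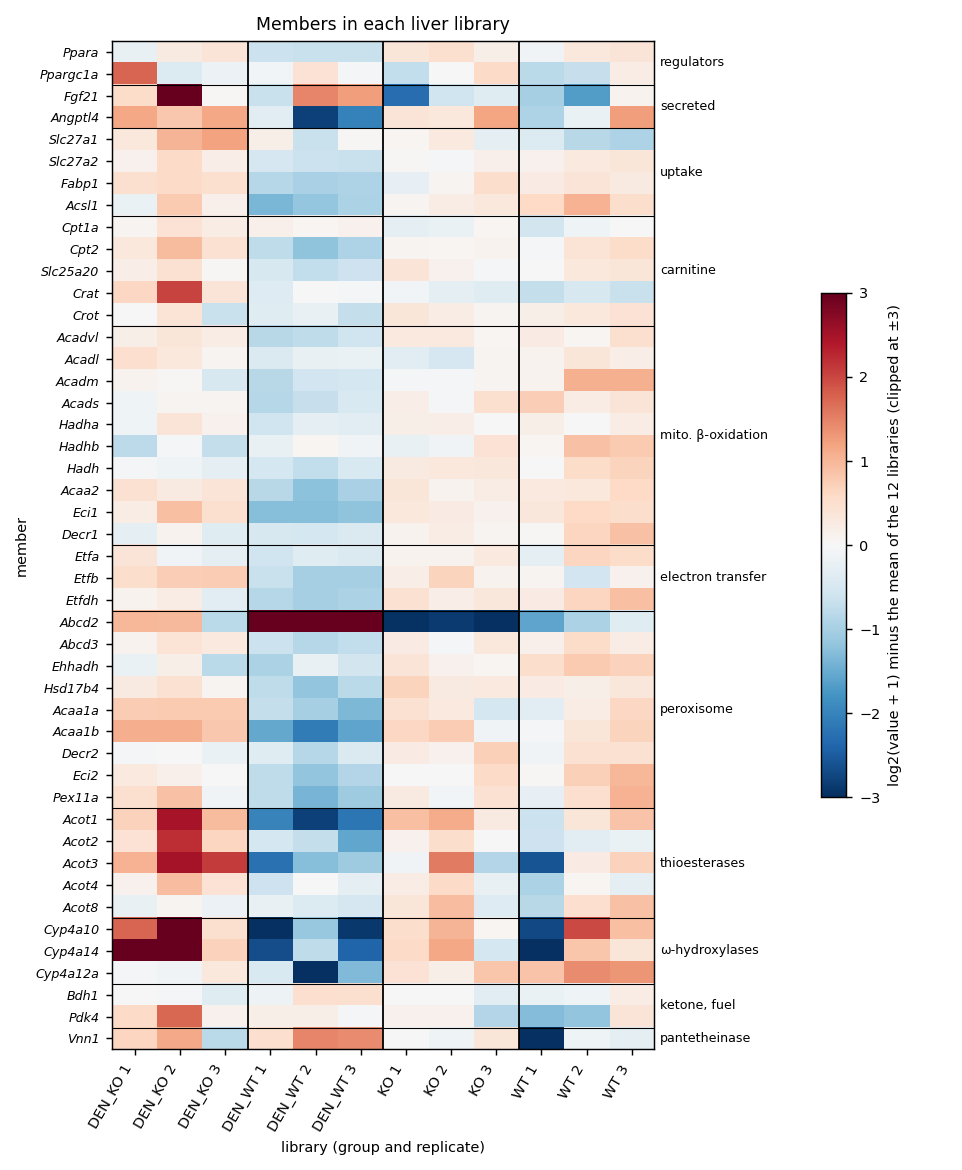
Heat map of the 46 members (rows, by role) in the 12 RNA libraries (columns, DEN_KO, DEN_WT, KO, WT), coloured by log2(value + 1) minus the gene's mean over the 12 libraries, clipped at -3 and 3. The DEN_WT columns are the lowest for 26 members, and Abcd2 is the row in which they are the highest.

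In DEN_KO against DEN_WT, 30 members were higher and 1 was lower, while 16.4% of all tested genes were called higher and 17.4% lower; 15 members were not called. The members' median log2 fold change was 0.93, beside -0.055 over all tested genes. Without WT replicate 1 and DEN_KO replicate 2, an alternative chosen after seeing the data, 27 members were higher and 3 lower. In DEN_WT against WT, 2 members were higher and 30 lower, where 16.1% of all genes were called higher and 13.5% lower, and the median was -0.93 beside -0.018. Without those libraries the counts were 2 higher and 32 lower. These comparisons share the DEN_WT libraries, so their opposite signs are not independent of each other.

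In the untreated and within-knockout comparisons few members moved. In DEN_KO against KO, 3 members were higher (Crat, Acadl and Abcd2) and 0 lower, beside 8.91% and 6.02% of all genes, and the median was 0.22. The median was 0.051 without DEN_KO replicate 2 and 0.11 without KO replicate 2, and without WT replicate 1 and DEN_KO replicate 2 the counts were 2 higher and 1 lower. At an unadjusted p under 0.05, 12 members were higher and 2 lower in the same limma fit. Together this was a share near that of all genes, where 5001 of 16471 were under it. In KO against WT, limma had 1 member higher and 3 lower at an unadjusted p under 0.05, beside 2492 of all 16471 genes in either direction. By adjusted p, 0 were higher and 1 lower (Abcd2), beside 0.546% and 0.613% of all genes, with a median of -0.079. That median was -0.22 without WT replicate 1, where 0 were higher and 2 lower (as without both that library and DEN_KO replicate 2), and -0.044, 0.056 and -0.014 without WT replicate 2, WT replicate 3 and KO replicate 3, where none was called. The DEN effect was compared between genotypes by the interaction, (DEN_KO - KO) - (DEN_WT - WT), where a positive value means that the change with DEN was more upward, or less downward, in knockouts. It was positive in 21 members and negative in 0, beside 8.73% and 7.83% of all genes, with a median of 1.03 beside -0.026 over all genes. At an unadjusted p under 0.05 the limma interaction was positive in 29 members and negative in 0, beside 5271 of all 16471 genes in either direction. Without WT replicate 1 and DEN_KO replicate 2 the number called was again 21, of which 17 were among the 21 called with all libraries.

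The members were also counted under other scales. Scaling each library to its sum outside the 100 highest genes shifted the median of all genes by 0.21 in DEN_WT against WT, by -0.15 in DEN_KO against DEN_WT and by -0.21 in the interaction. That scaling shifts all genes of a library nearly alike, so the members' median relative to that of all genes could hardly change under it. This relative median was 0.98 in DEN_KO against DEN_WT under both scalings, and -0.91 in DEN_WT against WT under both. Under quantile normalization, which can change it, it was 0.84 and -0.60. Calls over all genes were 48.6% higher in DEN_KO against DEN_WT, against 35.3% under that scaling, 54.5% against 73.5% in DEN_WT against WT, and 52.7% against 33.6% in the interaction. Members then numbered 27 higher and 1 lower in DEN_KO against DEN_WT, 3 higher and 25 lower in DEN_WT against WT, and 18 in the interaction. Under quantile normalization they numbered 27 higher and 2 lower in DEN_KO against DEN_WT, 4 and 21 in DEN_WT against WT, and 15 in the interaction. Some called values were smaller by more than 1.5 times under quantile normalization: in DEN_WT against WT, Acaa2 was -0.90 (adjusted p = 0.001), Acadvl -0.58 (adjusted p = 0.02) and Hadh -0.59 (adjusted p = 0.015); in DEN_KO against DEN_WT, Fabp1 was 0.92 (adjusted p = 0.0045) and Acsl1 0.88 (adjusted p = 0.014); and the interaction of Fabp1 was 1.05 (adjusted p = 0.027). Quantile normalization ended the calls of Slc27a2, Acads and Hadha in DEN_KO against DEN_WT (adjusted p = 0.13 to 0.46) and those of Slc27a2, Acadvl, Acadm, Acads, Etfb and Cyp4a12a in the interaction (adjusted p = 0.061 to 0.19). In DEN_WT against WT it ended those of Slc27a2, Fabp1, Crot, Acadl, Hadha, Etfa, Etfb, Ehhadh and Acaa1a (adjusted p = 0.051 to 0.67). Scaling without the 100 highest genes ended the calls of Acadl, Hadha and Acot4 in DEN_KO against DEN_WT (adjusted p = 0.063 to 0.12), of Crot, Acadl, Hadha, Etfa and Etfb in DEN_WT against WT (adjusted p = 0.072 to 0.23), and of Slc25a20, Acads and Etfb in the interaction (adjusted p = 0.054 to 0.080).

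**Figure D2:**
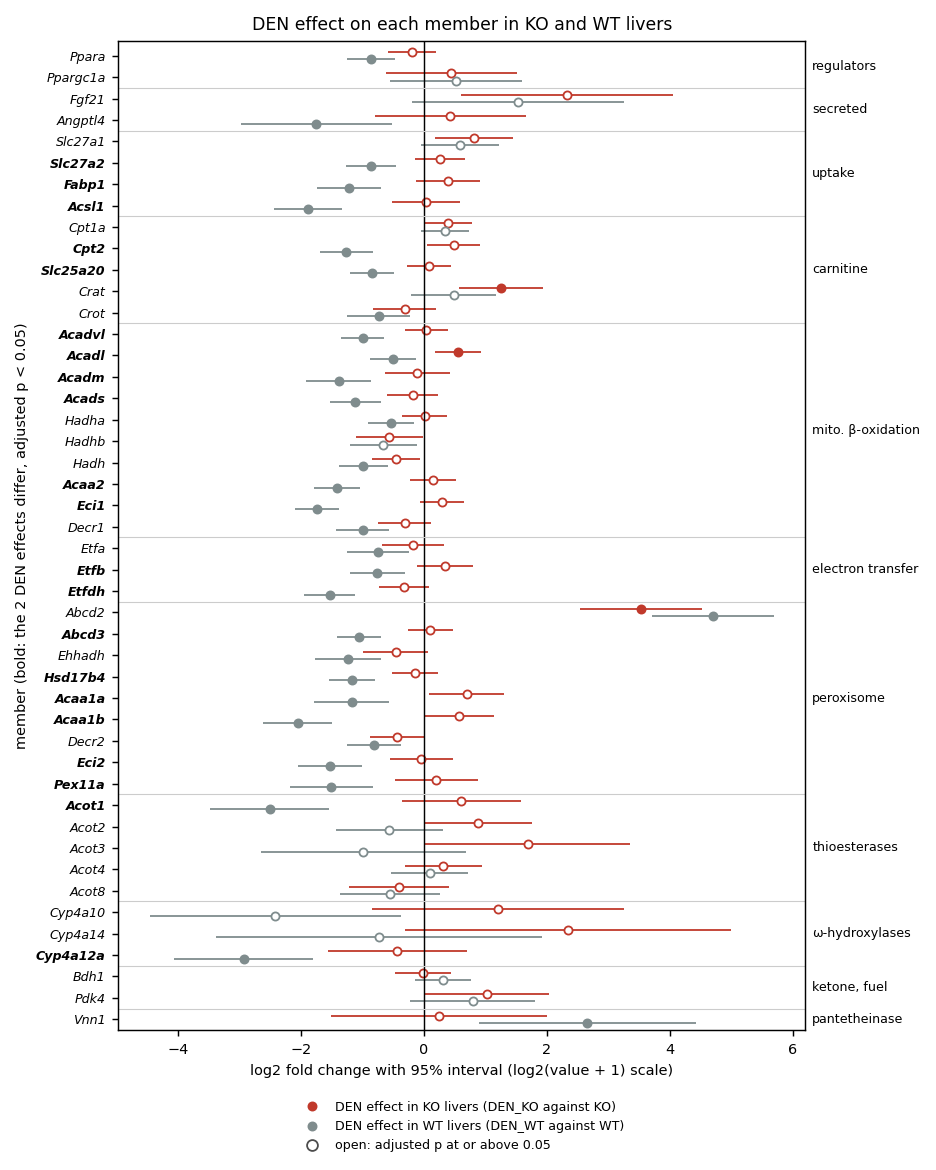
Log2 fold change with DEN for each member, in knockouts (DEN_KO against KO, red, upper symbol of each pair) and in wild types (DEN_WT against WT, grey), with 95% intervals; filled symbols passed an adjusted p of 0.05 in limma, and names in bold are the 21 members called in the interaction. Most grey symbols lie below 0 and most red ones near 0, and Abcd2 lies above 0 in both.

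The receptor itself followed the module. Ppara (ENSMUSG00000022383, chr15:85565413-85633249, + strand) had 2255, 3155 and 3420 in DEN_KO, 1672, 1651 and 1649 in DEN_WT, 3377, 3687 and 2960 in KO, and 2443, 3264 and 3423 in WT. All 3 DEN_WT libraries were within a narrow band below the other 9. Ppara was 1.75-fold higher in DEN_KO than in DEN_WT (0.81 ± 0.18, adjusted p = 0.0048) and 1.82-fold lower in DEN_WT than in WT (-0.86 ± 0.18, adjusted p = 0.0033). Its interaction was 0.66 ± 0.26 (adjusted p = 0.095), and it passed the threshold without WT replicate 1 (0.81, adjusted p = 0.047) or without DEN_KO replicate 1 (0.84, adjusted p = 0.039). Ppargc1a, which encodes the coactivator PGC-1alpha, read 514, 114 and 134 in DEN_KO, 144, 206 and 145 in DEN_WT, 91, 151 and 225 in KO, and 86, 94 and 177 in WT. The groups overlapped, with a single high library in DEN_KO, and the difference between DEN_KO and DEN_WT was 0.29 ± 0.50 (adjusted p = 0.69); without DEN_KO replicate 1 it turned to -0.39.

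Of the secreted signals, Angptl4 changed and Fgf21 was not called. Angptl4, an inhibitor of lipoprotein lipase that PPARA induces in liver, had 5935, 4645 and 5908 in DEN_KO, 2129, 375 and 647 in DEN_WT, 3418, 3295 and 5966 in KO, and 1378, 2284 and 6288 in WT. The DEN_KO libraries were all above the DEN_WT ones, and the WT libraries were spread over both. The log2 fold change was 2.76 ± 0.57 (adjusted p = 0.0027) in DEN_KO against DEN_WT and -1.75 ± 0.57 (adjusted p = 0.034) in DEN_WT against WT. The call in DEN_WT against WT was lost without WT replicate 2 or 3 or without DEN_WT replicate 2 or 3 (-1.14 to -1.87, adjusted p = 0.062 to 0.14). Its interaction was 2.18 ± 0.81 (adjusted p = 0.082), and passed the threshold without WT replicate 1 (2.66, adjusted p = 0.043) or DEN_WT replicate 1 (2.88, adjusted p = 0.013). Fgf21, the fasting hormone of the liver, had 133, 825 and 93 in DEN_KO, 57, 254 and 217 in DEN_WT, 18, 60 and 71 in KO, and 45, 28 and 98 in WT. It was low in every untreated library and varied several-fold within each DEN group. Its difference was 0.56 ± 0.80 (adjusted p = 0.62) in DEN_KO against DEN_WT, turning to -0.40 without DEN_KO replicate 2 and to -0.11 without DEN_WT replicate 1, and 1.54 ± 0.80 (adjusted p = 0.17) in DEN_WT against WT.

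All 4 genes of fatty acid uptake, binding and activation were higher in DEN_KO than in DEN_WT, and 3 of the 4 were lower in DEN_WT than in WT. Acsl1, a long-chain acyl-CoA synthetase, read 18957, 37756 and 24350 in DEN_KO, 8412, 9792 and 11273 in DEN_WT, 23302, 25368 and 27369 in KO, and 33299, 44901 and 31337 in WT. The highest DEN_WT library was far below the lowest of the others. Acsl1 was 2.66-fold higher in DEN_KO than in DEN_WT (1.41 ± 0.26, adjusted p = 0.0013) and 3.69-fold lower in DEN_WT than in WT (-1.89 ± 0.26, adjusted p = 0.00016), and its interaction was 1.92 ± 0.36 (adjusted p = 0.0048). Fabp1, whose promoter letters are printed above, had 66171, 70722 and 66451 in DEN_KO, 26257, 24390 and 25350 in DEN_WT, 40127, 50314 and 68376 in KO, and 57046, 62546 and 57333 in WT. Its DEN_WT libraries were again lowest, and DEN_KO was above every WT library. The fold changes were 1.42 ± 0.24 (adjusted p = 0.00086) in DEN_KO against DEN_WT and -1.22 ± 0.24 (adjusted p = 0.0021) in DEN_WT against WT, with an interaction of 1.61 ± 0.34 (adjusted p = 0.0087).

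Slc27a2, a very long-chain acyl-CoA synthetase and fatty acid transporter, had 23742, 32192 and 24715 in DEN_KO, 15124, 13828 and 13667 in DEN_WT, 21995, 21181 and 23878 in KO, and 23505, 26349 and 28027 in WT. The groups did not overlap between DEN_KO and DEN_WT. Its fold changes were 0.91 ± 0.19 (adjusted p = 0.003) in DEN_KO against DEN_WT and -0.87 ± 0.19 (adjusted p = 0.004) in DEN_WT against WT, with an interaction of 1.12 ± 0.27 (adjusted p = 0.014). Slc27a1, a transporter better known from muscle and fat, had 169, 276 and 319 in DEN_KO, 155, 86 and 141 in DEN_WT, 143, 167 and 112 in KO, and 103, 76 and 71 in WT. Every DEN_KO library was above all others, and DEN_WT overlapped WT and KO. It was higher in DEN_KO than in DEN_WT (0.99 ± 0.29, adjusted p = 0.02), a call lost without DEN_WT replicate 2 (0.73, adjusted p = 0.093), DEN_KO replicate 2 (0.91, adjusted p = 0.065) or DEN_KO replicate 3 (0.80, adjusted p = 0.092).

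In the carnitine shuttle the genes parted. Cpt1a, the outer-membrane carnitine palmitoyltransferase that sets the rate of entry into mitochondria and a textbook PPARA target, had 7833, 10001 and 8581 in DEN_KO, 8213, 7650 and 8048 in DEN_WT, 6031, 6414 and 7661 in KO, and 4983, 6725 and 7366 in WT. Its DEN_KO and DEN_WT libraries overlapped, and neither lay below the untreated range. The difference was 0.14 ± 0.18 (adjusted p = 0.59) in DEN_KO against DEN_WT, with a 95% interval of -0.25 to 0.53, and 0.34 ± 0.18 (adjusted p = 0.17) in DEN_WT against WT. The first was 0.041 without DEN_KO replicate 2 and 0.22 without DEN_KO replicate 1, and the second was 0.18 without WT replicate 1. Its direction in DEN_KO against DEN_WT depended on the scale, at -0.30 under quantile normalization and -0.017 when scaled to the sum outside the 100 highest genes; under those scales it was higher in DEN_WT than in WT (0.84, adjusted p = 0.0031, and 0.56, adjusted p = 0.029).

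Cpt2, the inner-membrane partner of Cpt1a, had 3965, 6156 and 4339 in DEN_KO, 1889, 1381 and 1673 in DEN_WT, 3375, 3336 and 3418 in KO, and 3084, 4227 and 4654 in WT. Every DEN_WT library was below every other library. It was 2.89-fold higher in DEN_KO than in DEN_WT (1.53 ± 0.20, adjusted p = 0.00018) and 2.4-fold lower in DEN_WT than in WT (-1.27 ± 0.20, adjusted p = 0.00048), with an interaction of 1.75 ± 0.28 (adjusted p = 0.0025). Slc25a20, the carnitine-acylcarnitine exchanger of the inner membrane, read 2463, 2979 and 2223 in DEN_KO, 1535, 1287 and 1403 in DEN_WT, 2807, 2349 and 2094 in KO, and 2164, 2683 and 2760 in WT. DEN_WT was again below the rest, by a smaller margin. Its fold changes were 0.85 ± 0.17 (adjusted p = 0.002) and -0.84 ± 0.17 (adjusted p = 0.0021) in the same comparisons, and its interaction was 0.92 ± 0.24 (adjusted p = 0.019).

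Crat and Crot, which make carnitine esters of short-chain and of medium-chain acyl groups, differed from each other. Crat had 887, 2356 and 755 in DEN_KO, 441, 576 and 568 in DEN_WT, 550, 472 and 452 in KO, and 354, 412 and 362 in WT. It was high in DEN_KO, most of all in replicate 2, and DEN_WT was not below WT. It rose in DEN_KO against DEN_WT (1.15 ± 0.32, adjusted p = 0.014), with 0.64 (adjusted p = 0.023) when DEN_KO replicate 2 was left out, and in DEN_KO against KO (1.25 ± 0.32, adjusted p = 0.021). In DEN_KO against KO it was 0.74 (adjusted p = 0.036) without DEN_KO replicate 2. There it lost its call without KO replicate 2 (1.22, adjusted p = 0.057) or KO replicate 3 (1.19, adjusted p = 0.052). With only the 2 groups compared in the limma fit, Crat was called in neither comparison (adjusted p = 0.0503 and 0.056). Crot fell in DEN_WT against WT (-0.74 ± 0.24, adjusted p = 0.032), a call lost without WT replicate 2 or 3 or DEN_WT replicate 1 or 3 (-0.60 to -0.77, adjusted p = 0.058 to 0.13), and was not called in DEN_KO against DEN_WT (0.34 ± 0.24, adjusted p = 0.29).

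Of the 10 genes of mitochondrial beta-oxidation, 9 fell in DEN_WT against WT and 6 were higher in DEN_KO than in DEN_WT. The largest changes were in Eci1, an enoyl-CoA isomerase needed for unsaturated chains. Eci1 (ENSMUSG00000024132, chr17:24563628-24576261, + strand) had 2690, 4298 and 3207 in DEN_KO, 954, 948 and 1009 in DEN_WT, 2889, 2764 and 2529 in KO, and 2922, 3522 and 3328 in WT. The DEN_WT libraries were tightly grouped, well below all others. Eci1 was 3.44-fold higher in DEN_KO than in DEN_WT (1.78 ± 0.17, adjusted p = 3.7e-05) and 3.35-fold lower in DEN_WT than in WT (-1.74 ± 0.17, adjusted p = 1.2e-05), and its interaction was 2.03 ± 0.24 (adjusted p = 0.00074). Acaa2, the mitochondrial thiolase, read 18073, 15966 and 17297 in DEN_KO, 7435, 5670 and 6706 in DEN_WT, 17049, 14134 and 15408 in KO, and 16258, 16548 and 19821 in WT. The gap between DEN_WT and the other libraries was wide. Its fold changes were 1.38 ± 0.18 (adjusted p = 0.00015) in DEN_KO against DEN_WT and -1.41 ± 0.18 (adjusted p = 8.3e-05) in DEN_WT against WT, with an interaction of 1.55 ± 0.25 (adjusted p = 0.0023).

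The 4 acyl-CoA dehydrogenases, which open each round for very long, long, medium and short chains, all had a positive interaction. Acadvl had 9241, 10469 and 9637 in DEN_KO, 4614, 4810 and 5399 in DEN_WT, 10110, 9970 and 8582 in KO, and 9748, 8563 and 11439 in WT. The DEN_WT libraries were well below the other 9. The fold changes were 0.99 ± 0.16 (adjusted p = 0.00069) in DEN_KO against DEN_WT and -0.998 ± 0.16 (adjusted p = 0.00057) in DEN_WT against WT, and the interaction was 1.03 ± 0.23 (adjusted p = 0.01). Acadl had 3750, 3285 and 2792 in DEN_KO, 1937, 2264 and 2289 in DEN_WT, 2104, 1852 and 2764 in KO, and 2844, 3371 and 3004 in WT. Its KO libraries overlapped DEN_WT, and DEN_KO overlapped WT. It was higher in DEN_KO than in DEN_WT (0.59 ± 0.17, adjusted p = 0.019), a call lost without DEN_WT replicate 1 (0.51, adjusted p = 0.066) or DEN_KO replicate 1 (0.49, adjusted p = 0.076), and its interaction was 1.06 ± 0.25 (adjusted p = 0.013). Its calls in DEN_WT against WT (-0.51 ± 0.17, adjusted p = 0.042) and in DEN_KO against KO (0.56 ± 0.17, adjusted p = 0.046) were lost on leaving out any of 8 and of 10 libraries (adjusted p = 0.051 to 0.13 and 0.052 to 0.16).

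Acadm, the medium-chain enzyme, had 6826, 6505 and 4523 in DEN_KO, 3527, 4269 and 4369 in DEN_WT, 6173, 6195 and 6638 in KO, and 6794, 13148 and 13220 in WT. WT replicates 2 and 3 were far above the rest, and DEN_KO and KO lay between them and DEN_WT. It fell in DEN_WT against WT (-1.39 ± 0.25, adjusted p = 0.001) and was not called in DEN_KO against DEN_WT (0.54 ± 0.25, adjusted p = 0.11). Its interaction of 1.28 ± 0.35 (adjusted p = 0.025) lost its call without any 1 of WT replicates 2 and 3, KO replicate 1 and DEN_KO replicates 1 and 2 (adjusted p = 0.054 to 0.062). Acads, the short-chain enzyme, had 6141, 7121 and 7073 in DEN_KO, 3701, 4137 and 4885 in DEN_WT, 7652, 6380 and 9308 in KO, and 11087, 7840 and 8754 in WT. DEN_WT was below all other libraries. Its fold changes were 0.68 ± 0.19 (adjusted p = 0.014) in DEN_KO against DEN_WT and -1.12 ± 0.19 (adjusted p = 0.00079) in DEN_WT against WT; the first lost its call without DEN_WT replicate 1 (0.59, adjusted p = 0.053) or DEN_KO replicate 3 (0.65, adjusted p = 0.051). The interaction of 0.93 ± 0.27 (adjusted p = 0.032) was lost without any 1 of WT replicate 1, DEN_WT replicates 1 and 2, KO replicates 1 and 2 and DEN_KO replicates 2 and 3 (adjusted p = 0.060 to 0.076).

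Hadha and Hadhb encode the subunits of the trifunctional protein from a shared divergent start, and Hadha alone was called in DEN_KO against DEN_WT. Hadha was higher in DEN_KO than in DEN_WT (0.52 ± 0.17, adjusted p = 0.031), with 6174, 8766 and 7402 in DEN_KO against 4427, 5607 and 5421 in DEN_WT. The groups did not overlap, but the call was lost without any 1 of DEN_WT replicates 1 and 3 and DEN_KO replicates 2 and 3 (0.40 to 0.57, adjusted p = 0.055 to 0.12). Its fall in DEN_WT against WT (-0.53 ± 0.17, adjusted p = 0.031) was lost without WT replicate 1 or 3 or DEN_WT replicate 1 or 3 (adjusted p = 0.058 to 0.12). Hadhb read 1211, 2009 and 1274 in DEN_KO against 1792, 2192 and 1955 in DEN_WT, which overlap, and its difference was -0.44 ± 0.25 (adjusted p = 0.2). The difference between the fold changes of the pair was not tested. Hadh and Decr1, a hydroxyacyl-CoA dehydrogenase and a dienoyl-CoA reductase, fell in DEN_WT against WT (-0.99 ± 0.18, adjusted p = 0.0013 and -0.99 ± 0.20, adjusted p = 0.0023) and were not called in DEN_KO against DEN_WT (0.43 ± 0.18, adjusted p = 0.087 and 0.30 ± 0.20, adjusted p = 0.26).

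The electron transfer flavoprotein takes electrons from the acyl-CoA dehydrogenases. Its 3 genes fell in DEN_WT against WT, and 2 were higher in DEN_KO than in DEN_WT. Etfdh, the oxidoreductase that hands the electrons to ubiquinone, had 4884, 5283 and 3659 in DEN_KO, 2502, 2255 and 2339 in DEN_WT, 6258, 5185 and 5695 in KO, and 5392, 7052 and 8501 in WT. DEN_WT was lowest, DEN_KO was below every WT library, and DEN_KO replicate 2 lay within the KO range. The fold changes were 0.95 ± 0.19 (adjusted p = 0.0023) in DEN_KO against DEN_WT and -1.54 ± 0.19 (adjusted p = 8.0e-05) in DEN_WT against WT, with an interaction of 1.21 ± 0.27 (adjusted p = 0.01). Etfb, the beta subunit, read 6494, 7538 and 7544 in DEN_KO, 2834, 2247 and 2256 in DEN_WT, 5133, 7166 and 4856 in KO, and 4738, 3007 and 4867 in WT. DEN_KO was above every WT library. It was higher in DEN_KO than in DEN_WT (1.56 ± 0.21, adjusted p = 0.00022) and lower in DEN_WT than in WT (-0.76 ± 0.21, adjusted p = 0.016), the second call being lost without WT replicate 1 or 3 or DEN_WT replicate 2 or 3 (adjusted p = 0.052 to 0.065).

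The interaction of Etfb, 1.11 ± 0.30 (adjusted p = 0.025), was lost without any 1 of WT replicates 1 and 3, DEN_WT replicates 2 and 3, KO replicate 1 and DEN_KO replicate 3 (adjusted p = 0.050 to 0.061). Etfa, the alpha subunit, fell in DEN_WT against WT (-0.75 ± 0.23, adjusted p = 0.027), a call lost without WT replicate 2 or 3 or DEN_WT replicate 1 or 3 (adjusted p = 0.062 to 0.12), and was not called in DEN_KO against DEN_WT (0.45 ± 0.23, adjusted p = 0.15).

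**Figure D3:**
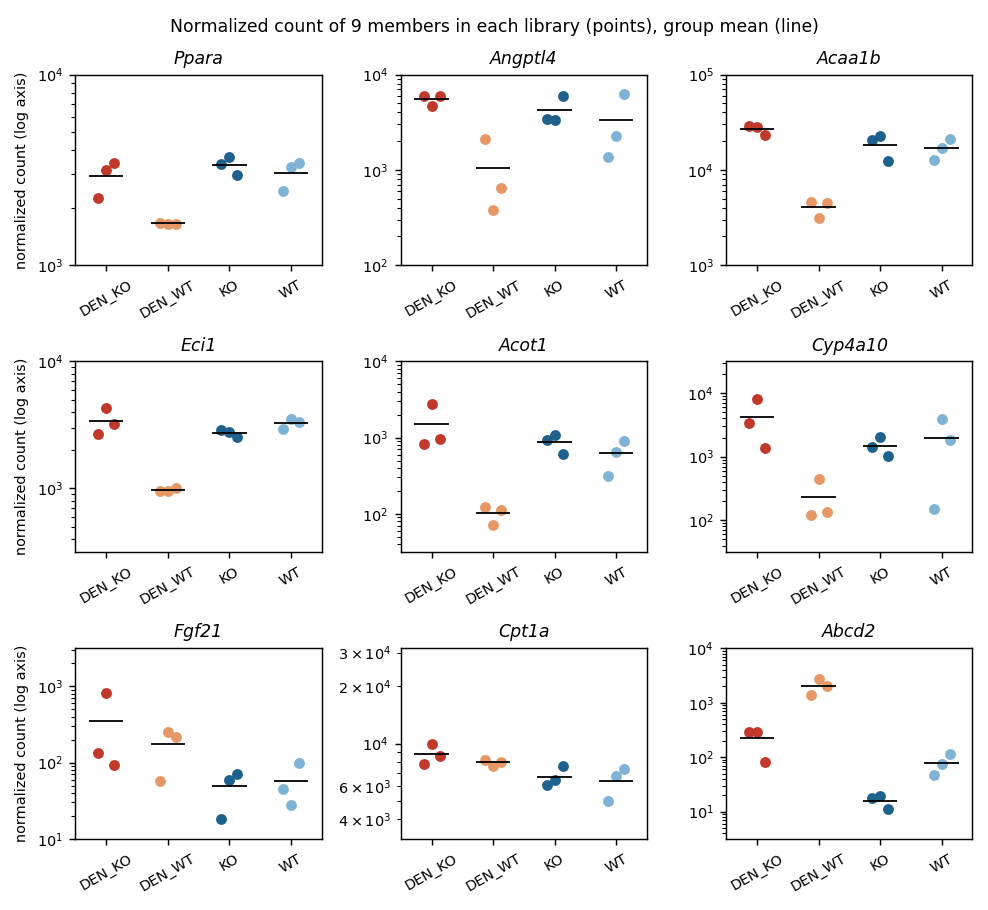
Normalized count in each of the 12 libraries (points, log axis) with the group mean (line) for 9 members, in the order DEN_KO, DEN_WT, KO, WT. Acaa1b, Eci1 and Acot1 show all DEN_WT points below the others, Cpt1a shows overlapping groups, and Abcd2 shows DEN_WT above them.

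Of the 9 peroxisomal members, 6 were higher and 1 lower in DEN_KO than in DEN_WT, and 8 were lower and 1 higher in DEN_WT than in WT. Acaa1a and Acaa1b encode near-identical peroxisomal thiolases, and reads shared between them could be split by the counting. Acaa1b (ENSMUSG00000010651, chr9:119057141-119066211, - strand) had 28556, 28206 and 23274 in DEN_KO, 4599, 3133 and 4436 in DEN_WT, 20336, 22432 and 12374 in KO, and 12743, 17005 and 21130 in WT. No DEN_WT library reached the lowest of any other group. Acaa1b was 6.64-fold higher in DEN_KO than in DEN_WT (2.73 ± 0.26, adjusted p = 3.7e-05) and 4.15-fold lower in DEN_WT than in WT (-2.05 ± 0.26, adjusted p = 0.0001), with an interaction of 2.63 ± 0.37 (adjusted p = 0.0013). Acaa1a read 16988, 17413 and 17265 in DEN_KO, 6159, 5079 and 3977 in DEN_WT, 13840, 12419 and 6982 in KO, and 7933, 11755 and 15414 in WT. DEN_WT was again lowest, with a tight DEN_KO group above all others. Its fold changes were 1.79 ± 0.28 (adjusted p = 0.00056) in DEN_KO against DEN_WT and -1.18 ± 0.28 (adjusted p = 0.007) in DEN_WT against WT, and its interaction was 1.87 ± 0.40 (adjusted p = 0.0089).

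Pex11a, a membrane protein that divides peroxisomes and that PPARA activators induce in rodents, had 2927, 3853 and 1924 in DEN_KO, 1229, 796 and 991 in DEN_WT, 2528, 1959 and 2884 in KO, and 1760, 2971 and 4269 in WT. DEN_WT was lowest, and the other 3 groups overlapped. Its fold changes were 1.49 ± 0.31 (adjusted p = 0.0029) in DEN_KO against DEN_WT and -1.51 ± 0.31 (adjusted p = 0.0028) in DEN_WT against WT, with an interaction of 1.71 ± 0.44 (adjusted p = 0.02). Hsd17b4, the D-bifunctional protein that carries out the middle steps of the peroxisomal cycle, read 6652, 7576 and 5836 in DEN_KO, 3294, 2431 and 3182 in DEN_WT, 8808, 6693 and 6757 in KO, and 6608, 6291 and 6997 in WT. DEN_WT was below the rest by a wide margin. The fold changes were 1.18 ± 0.18 (adjusted p = 0.00039) and -1.17 ± 0.18 (adjusted p = 0.00033) in the same comparisons, and the interaction was 1.02 ± 0.25 (adjusted p = 0.015); without both WT replicate 1 and DEN_KO replicate 2 it was 0.93 (adjusted p = 0.052).

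Abcd3, an acyl-CoA transporter of the peroxisomal membrane, had 6916, 8429 and 7790 in DEN_KO, 4075, 3528 and 3808 in DEN_WT, 7570, 6111 and 7891 in KO, and 7125, 9368 and 7469 in WT. Its DEN_KO, KO and WT libraries overlapped above DEN_WT. The fold changes were 1.02 ± 0.17 (adjusted p = 0.0007) in DEN_KO against DEN_WT and -1.06 ± 0.17 (adjusted p = 0.00048) in DEN_WT against WT, with an interaction of 1.17 ± 0.24 (adjusted p = 0.007). Eci2, another enoyl-CoA isomerase, had 4958, 4474 and 4005 in DEN_KO, 2367, 1770 and 2189 in DEN_WT, 4070, 3992 and 6016 in KO, and 4147, 6627 and 8048 in WT. WT replicates 2 and 3 and KO replicate 3 were the highest, and DEN_WT the lowest. The fold changes were 1.09 ± 0.24 (adjusted p = 0.0038) and -1.53 ± 0.24 (adjusted p = 0.00044), and the interaction was 1.48 ± 0.34 (adjusted p = 0.012). Ehhadh, the L-bifunctional protein, and Decr2, a peroxisomal dienoyl-CoA reductase, fell in DEN_WT against WT (-1.24 ± 0.25, adjusted p = 0.0022 and -0.81 ± 0.21, adjusted p = 0.0092) and were not called in DEN_KO against DEN_WT (0.30 ± 0.25, adjusted p = 0.37 and 0.46 ± 0.21, adjusted p = 0.097).

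Abcd2 ran against the module. It encodes another peroxisomal fatty acid transporter, which adult mouse liver normally expresses little. Abcd2 (ENSMUSG00000055782, chr15:90976315-91022238, - strand) had 291, 287 and 83 in DEN_KO, 1368, 2759 and 2019 in DEN_WT, 18, 19 and 11 in KO, and 48, 75 and 114 in WT. DEN_WT stood above every other library, DEN_KO lay below it and overlapped WT, and KO was below WT without overlap. Abcd2 was 26.1-fold higher in DEN_WT than in WT (4.71 ± 0.46, adjusted p = 1.3e-05) and 10.3-fold lower in DEN_KO than in DEN_WT (-3.36 ± 0.46, adjusted p = 0.00024). With DEN it also rose in knockouts, 11.6-fold in DEN_KO against KO (3.53 ± 0.46, adjusted p = 0.00082), and the interaction was not called (-1.17 ± 0.65, adjusted p = 0.23). In KO against WT it was lower (-2.18 ± 0.46, adjusted p = 0.039), a call lost without any 1 of WT replicates 2 and 3, DEN_WT replicate 3 and KO replicates 1, 2 and 3 (-1.88 to -2.32, adjusted p = 0.056 to 0.15).

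The acyl-CoA thioesterases release free fatty acids from acyl-CoA. Acot1 to Acot4 lie in 1 gene cluster and are close in sequence, so reads could be split between them. In DEN_KO against DEN_WT, 4 of the 5 were higher. Acot1, the cytosolic enzyme (ENSMUSG00000072949, chr12:85350448-85358621, + strand), had 815, 2766 and 974 in DEN_KO, 124, 71 and 111 in DEN_WT, 932, 1091 and 609 in KO, and 318, 650 and 902 in WT. The DEN_WT libraries were well below all 9 others, and DEN_KO replicate 2 was the highest of all. Acot1 was 13-fold higher in DEN_KO than in DEN_WT (3.70 ± 0.45, adjusted p = 0.00012) and 5.71-fold lower in DEN_WT than in WT (-2.51 ± 0.45, adjusted p = 0.001), and its interaction of 3.12 ± 0.63 (adjusted p = 0.007) was the largest among the members called there. Acot2, the mitochondrial enzyme, had 191, 660 and 222 in DEN_KO, 97, 85 and 47 in DEN_WT, 154, 204 and 140 in KO, and 92, 114 and 122 in WT. DEN_KO was above DEN_WT without overlap, and DEN_WT overlapped WT. It was higher in DEN_KO than in DEN_WT (2.04 ± 0.40, adjusted p = 0.0021) and was not called in DEN_WT against WT (-0.57 ± 0.40, adjusted p = 0.32).

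Acot3, a peroxisomal enzyme, read 183, 507 and 387 in DEN_KO, 18, 36 and 42 in DEN_WT, 83, 264 and 48 in KO, and 14, 106 and 145 in WT. Values were low and spread widely in every group, yet DEN_KO and DEN_WT did not overlap. Its fold change was 3.41 ± 0.77 (adjusted p = 0.0048) in DEN_KO against DEN_WT. Acot4, whose promoter letters are printed above, was higher in DEN_KO than in DEN_WT (0.80 ± 0.29, adjusted p = 0.049), a call lost without any 1 of WT replicate 3, DEN_WT replicates 1 and 3, KO replicate 1 and DEN_KO replicates 2 and 3 (0.58 to 0.83, adjusted p = 0.058 to 0.18). Acot8, another peroxisomal thioesterase, was not called (0.27 ± 0.38, adjusted p = 0.62).

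The omega-hydroxylases Cyp4a14 and Cyp4a10 had the largest fold changes of the module in DEN_KO against DEN_WT. These cytochrome P450 enzymes, which rodent PPARA activators induce strongly, belong to a family of close copies whose reads could be split. Cyp4a10 (ENSMUSG00000066072, chr4:115190869-115206254, + strand) had 3342, 7956 and 1383 in DEN_KO, 120, 447 and 133 in DEN_WT, 1436, 2005 and 1032 in KO, and 151, 3935 and 1854 in WT. DEN_WT was below DEN_KO without overlap, while WT replicate 1 lay within the DEN_WT range and the other WT libraries far above it. Cyp4a10 was 17.2-fold higher in DEN_KO than in DEN_WT (4.10 ± 0.95, adjusted p = 0.0054), and DEN_WT against WT was not called (-2.42 ± 0.95, adjusted p = 0.071). Cyp4a14 read 2723, 5491 and 461 in DEN_KO, 44, 168 and 53 in DEN_WT, 426, 635 and 196 in KO, and 9, 505 and 368 in WT. Its DEN_KO libraries themselves differed widely, and WT ranged from near 0 to above DEN_WT. The fold change was 4.68 ± 1.23 (adjusted p = 0.011) in DEN_KO against DEN_WT.

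Cyp4a12a, a hydroxylase that is expressed mainly in male mouse liver, had 9000, 8806 and 11660 in DEN_KO, 6904, 877 and 3756 in DEN_WT, 12794, 10648 and 16864 in KO, and 17085, 25176 and 23524 in WT. DEN_WT was lowest but spread widely, and DEN_KO stayed below the WT libraries. It was 7.63-fold lower in DEN_WT than in WT (-2.93 ± 0.53, adjusted p = 0.0011). In DEN_KO against DEN_WT it was higher (1.78 ± 0.53, adjusted p = 0.019), with 0.94 (adjusted p = 0.033) without DEN_WT replicate 2 and no call without DEN_KO replicate 3 (1.65, adjusted p = 0.066). The interaction was 2.49 ± 0.74 (adjusted p = 0.036), with 1.65 (adjusted p = 0.020) without DEN_WT replicate 2 and no call without any 1 of WT replicates 2 and 3, KO replicates 1 and 2 and the DEN_KO libraries (adjusted p = 0.055 to 0.081).

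The remaining members did not follow the module. Bdh1, which interconverts the ketone bodies, had 8666, 8493 and 6764 in DEN_KO against 7761, 12363 and 12108 in DEN_WT, and was not called (-0.41 ± 0.21, adjusted p = 0.15). Pdk4, the pyruvate dehydrogenase kinase that spares glucose during fasting, read 154, 341 and 113 in DEN_KO, 116, 116 and 99 in DEN_WT, 113, 112 and 55 in KO, and 41, 45 and 135 in WT. The values were low in all groups, and a high library in DEN_KO set its mean. The differences were 0.71 ± 0.47 (adjusted p = 0.26) in DEN_KO against DEN_WT and 0.79 ± 0.47 (adjusted p = 0.23) in DEN_WT against WT, the first being 0.26 without DEN_KO replicate 2. The second was 0.49 without WT replicate 1 and passed the threshold without WT replicate 3 (1.34, adjusted p = 0.038). Vnn1, a pantetheinase and a PPARA target in mouse liver, had 1089, 1548 and 396 in DEN_KO, 998, 1921 and 1856 in DEN_WT, 701, 636 and 895 in KO, and 38, 634 and 571 in WT. DEN_WT stood above all WT libraries, of which replicate 1 was very low, and overlapped DEN_KO. It was higher in DEN_WT than in WT (2.66 ± 0.82, adjusted p = 0.026), with 1.34 (adjusted p = 0.046) without WT replicate 1 and no call without DEN_WT replicate 2 or 3 (2.49 and 2.52, adjusted p = 0.073 and 0.074), and DEN_KO against DEN_WT was -0.80 ± 0.82 (adjusted p = 0.48).

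Other genes of the pathway were counted from lists chosen for their roles, with earlier results of these data known. At an unadjusted p under 0.05, limma had 7363 of all 16471 genes in DEN_KO against DEN_WT. It had 6733 in DEN_WT against WT and 5271 in the interaction. Among 40 other PPARA targets, 24 were higher and 2 lower in DEN_KO than in DEN_WT, 5 were higher and 23 lower in DEN_WT than in WT, and 15 had a positive and 0 a negative interaction (24 at an unadjusted p under 0.05 in limma). Their median in DEN_KO against DEN_WT was 0.85, beside -0.055 for all genes. Fitm1 and Plin4, of lipid droplets, were the most raised. Fitm1 had 1507, 1196 and 1066 in DEN_KO against 224, 11 and 47 in DEN_WT (4.62 ± 0.86 SE, adjusted p = 0.0015). Plin4 had 1922, 781 and 358 in DEN_KO against 122, 40 and 35 in DEN_WT (3.85 ± 0.60 SE, adjusted p = 0.00049). Me1, which makes NADPH from malate, and Ephx2, an epoxide hydrolase, were also higher in DEN_KO than in DEN_WT (2.21 ± 0.35, adjusted p = 0.00051 and 1.83 ± 0.26, adjusted p = 0.00029), as were the omega-hydroxylases Cyp4a32 (1.90 ± 0.27, adjusted p = 0.00031) and Cyp4a12b (1.59 ± 0.51, adjusted p = 0.03). Against that direction, the droplet protein Cidec (2.81 ± 0.49, adjusted p = 0.00087) and the keratin Krt23 (2.48 ± 0.42, adjusted p = 0.00078) were higher in DEN_WT than in WT.

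Among 26 other peroxisomal genes, 10 were higher and 0 lower in DEN_KO than in DEN_WT, with 11 at an unadjusted p under 0.05 in limma, and 14 were lower and 0 higher in DEN_WT than in WT, with 19 at that unadjusted p. The examples were Acot5, a thioesterase of the same cluster as Acot3 (3.72 ± 0.88, adjusted p = 0.006), Pecr, a peroxisomal enoyl-CoA reductase (1.80 ± 0.23, adjusted p = 0.00017), Pex16, a peroxisome assembly factor (1.51 ± 0.23, adjusted p = 0.00047), and Slc27a5, a bile acid and fatty acid CoA ligase (1.39 ± 0.25, adjusted p = 0.0011). Phyh, Scp2 and Amacr, of branched-chain fatty acid and bile acid side chain breakdown, fell in DEN_WT against WT (-1.43 ± 0.23, adjusted p = 0.00053, -1.08 ± 0.26, adjusted p = 0.0063 and -1.18 ± 0.19, adjusted p = 0.00058).

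Among 24 other genes of mitochondrial acyl-CoA metabolism, 9 were higher and 3 lower in DEN_KO than in DEN_WT, and 4 were higher and 18 lower in DEN_WT than in WT. The medium-chain synthetase genes Acsm1 and Acsm5 went with the module, at 1.67 ± 0.25 (adjusted p = 0.00038) and 1.12 ± 0.27 (adjusted p = 0.007) in DEN_KO against DEN_WT. The long-chain synthetases Acsl4 and Acsl3 went the other way from Acsl1. Acsl4 had 646, 959 and 662 in DEN_KO against 2522, 2775 and 2396 in DEN_WT (-1.78 ± 0.25, adjusted p = 0.00029), and Acsl3 had 400, 358 and 278 in DEN_KO against 532, 1266 and 874 in DEN_WT (-1.29 ± 0.28, adjusted p = 0.0037). Both were higher in DEN_WT than in WT (1.29 ± 0.25, adjusted p = 0.002 and 1.74 ± 0.28, adjusted p = 0.00055), as was the thioesterase Acot9 (2.10 ± 0.37, adjusted p = 0.00095), while Acadsb, Hibadh and Mcee, of branched-chain amino acid and propionate breakdown, were lower (-1.43 ± 0.14, adjusted p = 1.7e-05, -1.58 ± 0.24, adjusted p = 0.00032 and -1.78 ± 0.44, adjusted p = 0.0082).

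Of 21 receptor partners and coregulators, 4 were higher and 1 lower in DEN_KO than in DEN_WT, beside 16.4% and 17.4% of all tested genes. The share of the list that was called, 23.8%, was below the 33.9% of all genes. The called ones were the orphan receptor Nr0b2 (1.29 ± 0.28, adjusted p = 0.0038), the FGF receptor Fgfr4 (0.74 ± 0.15, adjusted p = 0.0025), Esrra (0.66 ± 0.19, adjusted p = 0.016), the retinoid X receptor Rxrb (0.46 ± 0.17, adjusted p = 0.049) and the coactivator Ncoa2 (-0.39 ± 0.13, adjusted p = 0.034). In DEN_WT against WT, Ppard, the related receptor PPAR-delta, was higher (1.16 ± 0.28, adjusted p = 0.0073) and Nr0b2 lower (-0.99 ± 0.28, adjusted p = 0.018).

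Other cell types and liver states were counted in the same comparisons. Over all tested genes, 16.4% were higher and 17.4% lower in DEN_KO than in DEN_WT. In DEN_WT against WT, 16.1% were higher and 13.5% lower. In bulk liver RNA, fewer cells of a type and less RNA per cell cannot be told apart. Of 12 stellate cell and fibroblast markers, 0 were higher and 7 lower in DEN_KO than in DEN_WT, with 9 at an unadjusted p under 0.05 in limma, and 7 were higher and 1 lower in DEN_WT than in WT. Their summed level was 4866 to 6250 in DEN_KO, 14214 to 29432 in DEN_WT, 4379 to 5404 in KO and 5561 to 6371 in WT. Sparc, a matrix protein, had 1455, 1271 and 939 in DEN_KO against 4154, 22871 and 20412 in DEN_WT. Without Sparc, which held most of the sum in DEN_WT replicates 2 and 3, the other 11 markers summed to 3927 to 4795 in DEN_KO, 5771 to 10060 in DEN_WT, 3424 to 4494 in KO and 4627 to 5030 in WT. Of 14 macrophage markers, 2 were higher and 3 lower in DEN_KO than in DEN_WT. Their summed level was 11327 to 14606 in DEN_KO, 5269 to 14676 in DEN_WT, 6826 to 8221 in KO and 5831 to 6309 in WT. Of 7 cholangiocyte markers tested, of 9 measured, 0 were higher and 2 lower in DEN_KO than in DEN_WT. In DEN_WT against WT, 2 were higher and 1 lower. All 9 summed to 1789 to 2622 in DEN_KO, 10552 to 17462 in DEN_WT, 1322 to 1698 in KO and 1671 to 2476 in WT. Their mean log2 was 5.41 to 5.85 in DEN_KO, 5.89 to 6.61 in DEN_WT, 5.34 to 5.55 in KO and 5.50 to 5.88 in WT. Of 11 lymphocyte markers tested, 1 was higher and 0 lower in both comparisons. Of 14 hepatocyte markers, 4 were higher and 1 lower in DEN_KO than in DEN_WT, and their summed level was 2132115 to 3009972 in DEN_KO, 3694073 to 5684121 in DEN_WT, 2168371 to 3536497 in KO and 2485294 to 2736584 in WT.

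Among 10 male-biased liver genes, 7 were higher and 0 lower in DEN_KO than in DEN_WT, with 8 at an unadjusted p under 0.05 in limma, and 0 were higher and 9 lower in DEN_WT than in WT, with 10 at that unadjusted p. Their mean log2 level was 12.9 to 13.5 in DEN_KO, 10.9 to 12.5 in DEN_WT, 13.7 to 14.0 in KO and 13.8 to 14.2 in WT. Of 12 fasting and insulin genes, 3 were higher and 4 lower in DEN_KO than in DEN_WT, and 5 were higher and 1 lower in DEN_WT than in WT. Their mean log2 level was 10.8 to 11.4 in DEN_KO, 11.4 to 11.5 in DEN_WT, 10.1 to 10.6 in KO and 9.70 to 10.1 in WT. Pck1, of gluconeogenesis, was higher (2.01 ± 0.47, adjusted p = 0.0054), and Igfbp1 and Trib3, of the fasting and amino acid stress responses, were lower (-2.80 ± 0.81, adjusted p = 0.018 and -2.14 ± 0.35, adjusted p = 0.00065). In DEN_WT against WT, Igfbp1 and Trib3 were higher (8.32 ± 0.81, adjusted p = 1.3e-05 and 3.30 ± 0.35, adjusted p = 2.4e-05). Of 16 circadian clock genes, 0 were higher and 0 lower in DEN_KO than in DEN_WT, with 6 at an unadjusted p under 0.05 in limma, and 2 were higher and 4 lower in DEN_WT than in WT, where the median was -0.40. Their summed level was 17972 to 31609 in DEN_KO, 13326 to 24200 in DEN_WT, 23253 to 27245 in KO and 26757 to 33610 in WT. The part of these cell types and states in the members' differences was not tested.

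**Figure D4:**
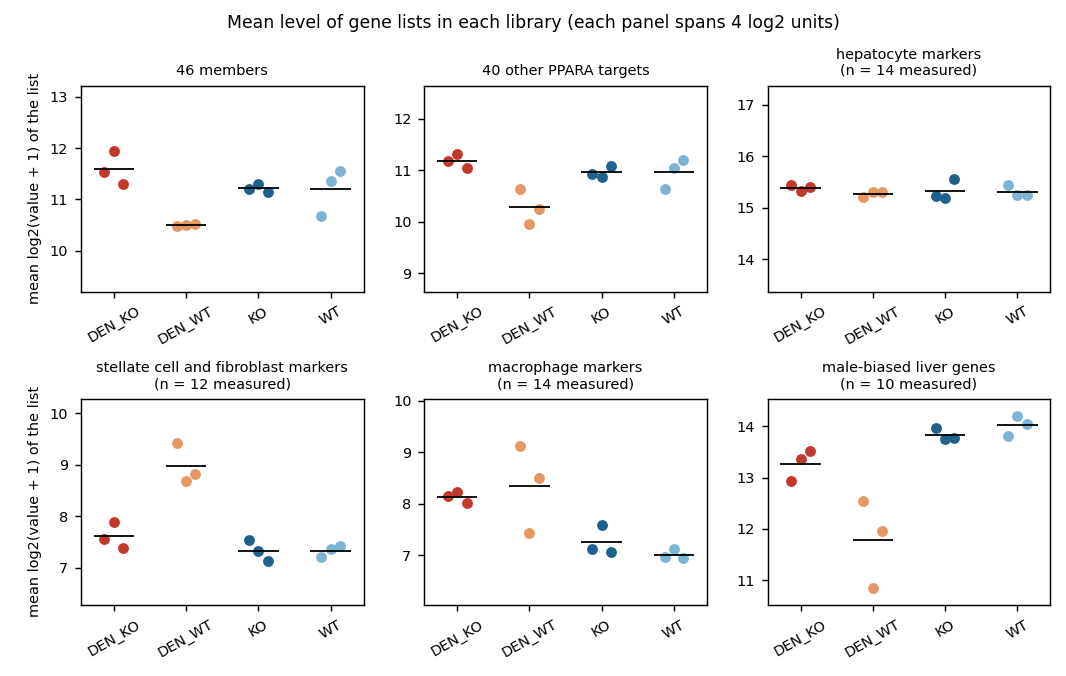
Mean log2(value + 1) of 6 gene lists in each library (points) with the group mean (line), in the order DEN_KO, DEN_WT, KO, WT; each panel spans 4 log2 units. The members and the other PPARA targets are lowest in DEN_WT, as are the male-biased genes, and the stellate markers are highest there. The hepatocyte markers are level in this mean, though not in their median.

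In the chromatin of DEN-treated livers most members carried H3K4me3 at their starts in both genotypes. The deposited lists hold 17491 regions for H3K4me3 in DEN_KO, 15579 for H3K4me3 in DEN_WT and 27324 for Smyd3 in DEN_WT, each as 1 list for 2 replicates, so the spread between replicates cannot be given and no difference between lists was tested. A region lay within 1000 bp of the start of 42 members in the H3K4me3 DEN_KO list (91.3%), 41 in the H3K4me3 DEN_WT list (89.1%) and 35 in the Smyd3 list (76.1%). Over all tested genes the shares were 72.4%, 70.5% and 64.2%.

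Ppara had an H3K4me3 region over its start of 9787 bp in DEN_KO and 7187 bp in DEN_WT, and a Smyd3 region of 1928 bp. Among the other members, H3K4me3 regions spanned 10158 bp in DEN_KO against 5588 bp in DEN_WT at Slc27a2, 3122 against 1785 bp at Acaa1b, 2268 against 1062 bp at Eci1 and 3006 against 1140 bp at Cyp4a12a. They were narrower in DEN_KO at Bdh1 (2478 against 3726 bp) and Abcd2 (3859 against 4359 bp). Narrower DEN_KO regions also lay at members called higher in DEN_KO than in DEN_WT, such as Acot2 (width ratio 0.684), Crat (0.69), Etfb (0.772) and Acsl1 (0.852). Wider ones also lay at members not called, such as Pdk4 (2.404), Etfa (1.742) and Acot8 (1.679). Over the 41 members with both regions, the DEN_KO region was the wider at 26 (63.4%), with a median ratio of widths of 1.16. At 11329 genes with both it was wider at 67.4%, with a median ratio of 1.11, so the members' share was near that of all genes.

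Acot1 was the member with an H3K4me3 region in DEN_KO (918 bp) and none near its start in DEN_WT, where the nearest lay 10203 bp upstream. Such genes were not rare: 11922 tested genes had a DEN_KO region within 1000 bp, and 11329 had one in both lists. The Smyd3 list had a region of 673 bp at the start of Acot1. The 4 members Ppargc1a, Cyp4a14, Cyp4a10 and Acot3 had no region of any list within 1000 bp. Another 7 had H3K4me3 without Smyd3: Abcd2, Fgf21, Fabp1, Eci2, Bdh1, Cyp4a12a and Vnn1. At Fabp1 the nearest Smyd3 region lay 3720 bp downstream. Of the 35 members with a Smyd3 region, 24 were higher in DEN_KO than in DEN_WT (68.6%), and of the 11 without one, 6 were higher (54.5%) and 1, Abcd2, lower. The same split was not made over all tested genes, of which 16.4% were higher, so these shares have no background beside them. The difference between them was not tested.

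**Figure D5:**
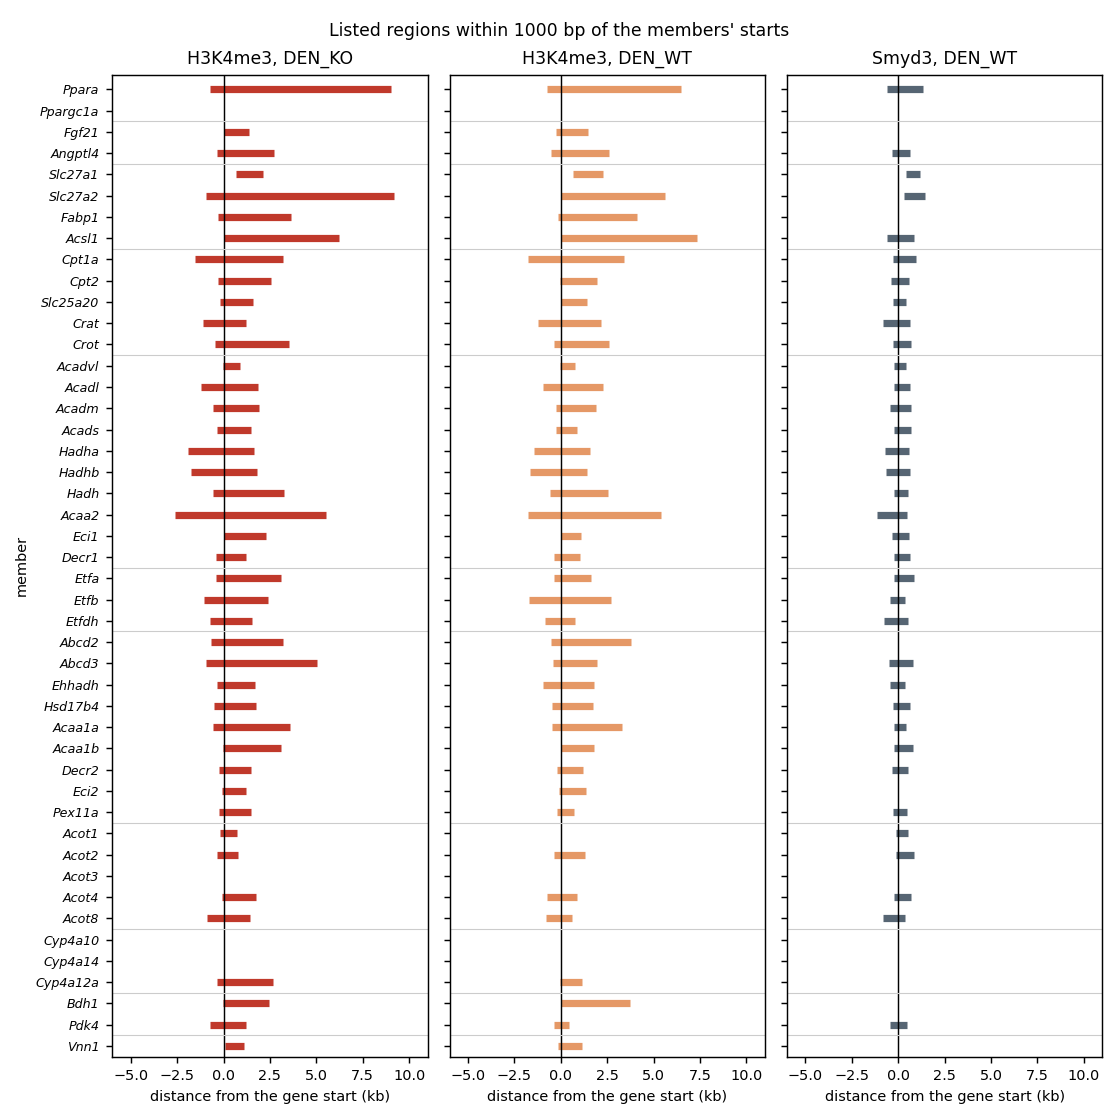
Listed regions within 1000 bp of each member's start, drawn by distance from the start in kb (positive is downstream along the gene), for H3K4me3 in DEN_KO, H3K4me3 in DEN_WT and Smyd3 in DEN_WT (3 panels, members as rows). 42, 41 and 35 of the 46 members have a region, and Ppargc1a, Cyp4a10, Cyp4a14 and Acot3 have none.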

How the data were processed

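Each value of the RNA table is a score: the authors divided a gene's read count by a factor of its library and rounded the quotient before they deposited it. This is inferred from the values, whose recomputed median-ratio factors lay between 0.9986 and 1.004. The 12 single-library files repeat the table. The submitters' processing notes name the build mm9 and, without role or order, the tools TopHat2 2.0.9, Bowtie2, cutadapt, Cufflinks and DESeq. Nothing used here names the counting step, its use of strand or the peak caller. The ChIP files list the starts and ends of regions, with a score of 0 in each line as deposited, 1 list per group. RNA polymerase II and input libraries were not analysed here.

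The design had named a count test only for the case that the values were raw counts. Because the values are normalized, limma 3.58.1 in R 4.3.3 was used on log2(value + 1) for genes of at least 10 in at least 3 libraries, in 1 fit of the 4 group means with a trend in the spread, Benjamini-Hochberg adjustment over the 16471 tested genes and a threshold of 0.05. The pseudocount understates changes of low genes. An exact test of 3 against 3 libraries cannot go below p = 0.10, so single genes have only the model p. The fit was tested on simulated data. Columns of samples outside the series numbered 0. Scaled, rounded values give no counting interval; the error given is that between mice.

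Members and gene lists were chosen with earlier results of these data known. Values in each library are given for Ppara, Ppargc1a, Fgf21, Angptl4, Cpt1a and Pdk4, for the members called in the interaction, and for the 3 members of each role with the largest change among those called in DEN_KO against DEN_WT; a few others are given in addition. Genes outside the module are those with the largest called changes, at most 8 per pathway list and 4 per state or cell type list; 1 gene of the clock list is not reported here. Shared replicate numbers did not pair the samples: over 18 pairs the deviations of same-numbered libraries correlated at -0.0996 to 0.120, with 1 above 0.1. Promoters and their letters come from RefSeq (GRCm38.p6). Alternatives were another pseudocount, other filters, quantile normalization, a scaling without the 100 highest genes, no trend, 2-group fits, a replicate block, summed rows, other start windows, and leaving out each library.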

Additional observations from a re-analysis of the deposited data

Results flagged for a closer look

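The DEN effect differed between genotypes in 21 members, by the interaction term of limma (DEN effect in knockouts minus DEN effect in wild types, on the log2 scale, adjusted p under 0.05 over all tested genes). Among uptake and activation genes the difference was 1.12 for Slc27a2, 1.61 for Fabp1 and 1.92 for Acsl1. In the carnitine shuttle it was 1.75 for Cpt2 and 0.92 for Slc25a20. In mitochondrial beta-oxidation it was 1.03 for Acadvl, 1.06 for Acadl, 1.28 for Acadm, 0.93 for Acads, 1.55 for Acaa2 and 2.03 for Eci1, and for electron transfer 1.11 for Etfb and 1.21 for Etfdh. Among peroxisomal genes it was 1.17 for Abcd3, 1.02 for Hsd17b4, 1.87 for Acaa1a, 2.63 for Acaa1b, 1.48 for Eci2 and 1.71 for Pex11a. Acot1 stood at 3.12 and Cyp4a12a at 2.49. All 21 were positive, and over all tested genes 8.73% were called positive and 7.83% negative. In 13 of the 21 the call held under every alternative run.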

How the results depend on the processing

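Over the alternatives, which leave out each library in turn or change the pseudocount, filter, scale, spread model or fit, members called numbered 27 to 33 in DEN_KO against DEN_WT, 25 to 34 in DEN_WT against WT and 15 to 27 in the interaction. Of the members called in DEN_KO against DEN_WT, 23 of 31 held under all of them, and 21 of 32 did in DEN_WT against WT. With only the compared groups in the fit, Hadha, Crat and Cyp4a12a lost their calls in DEN_KO against DEN_WT (adjusted p = 0.0503 to 0.061). Angptl4 and Vnn1 lost theirs in DEN_WT against WT (adjusted p = 0.082 and 0.059). Without a trend in the spread, Acot4 lost its call in the first comparison (adjusted p = 0.078). Angptl4, Crot, Acadl, Etfa and Vnn1 lost theirs in the second (adjusted p = 0.051 to 0.069). In DEN_KO against KO the number called was 1 with only the compared groups in the fit, and 1 to 3 when single libraries were left out. In KO against WT the 1 call became 0 with pseudocount 5, quantile normalization, no trend, only the compared groups or the replicate block, 2 without WT replicate 1 and DEN_KO replicate 2, and 0 to 2 when single libraries were left out. The replicate block gave 31 calls in DEN_KO against DEN_WT, 33 in DEN_WT against WT and 23 in the interaction; 3 of 12 libraries correlated best with their own number. Among the members' differences recomputed, those named in the text, directions turned in 3 that were not called in DEN_KO against DEN_WT: Cpt1a was -0.30 under quantile normalization and -0.017 scaled without the 100 highest genes, Ppargc1a ran from -0.39 to 0.69 and Fgf21 from -0.40 to 1.17 when single libraries were left out, and Fgf21 was -0.40 without both WT replicate 1 and DEN_KO replicate 2. The members' median in KO against WT, -0.079, was 0.056 without WT replicate 3. The causes were not tested. Members with a region at the start numbered 37 to 42 for each H3K4me3 list and 33 to 37 for Smyd3 with other windows. With 3 mice per group, low and variable members such as Fgf21 and Pdk4 had wide errors in DEN_KO against DEN_WT (SE of 0.80 and 0.47 on the log2 scale).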

Other observations

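Beside the module, female-biased liver genes were counted because Cyp4a12a is male-biased and Acot3 stands in both the module and the female-biased list. Of 11 such genes tested, 5 were higher and 1 lower in DEN_WT than in WT, and 2 were higher and 1 lower in DEN_KO than in DEN_WT. Cyp2a4 was 7.26 higher on the log2 scale in DEN_WT than in WT and -2.26 in DEN_KO against DEN_WT, and Sult2a1 was 5.09 higher in DEN_WT than in WT (all called in limma).

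Of 10 adipocyte markers, 5 had enough signal to be tested. Adipoq, which marks fat cells most closely, read 0 to 2 in every library. Of the 5, 2 were higher and 1 lower in DEN_KO than in DEN_WT (Cfd at 5.45 and Pck1 at 2.01 on the log2 scale, and Fabp4 at -0.93), 3 were higher and 0 lower in DEN_KO than in KO (Cidea at 2.75, Cfd at 2.65 and Fabp4 at 1.17), and 2 were higher and 0 lower in DEN_WT than in WT (Cidea at 5.50 and Fabp4 at 2.28). At an unadjusted p under 0.05 limma had 3 of the 5 in each of the comparisons with untreated livers. Of 11 endothelial markers, 6 were higher in DEN_WT than in WT and 2 were lower in DEN_KO than in DEN_WT. The part of these genes in the members' differences was not tested.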
